A study of Mus musculus with 5 samples.

Results

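Nucleolar and ribosome biogenesis genes were followed in intestinal epithelial cells of fasted and refed mice. The 42 genes were chosen by name for their role, with earlier results of these data known, out of 22042 genes in the bulk RNA-Seq table. They comprise 4 nucleolar phosphoproteins and chaperones, 4 proteins of box C/D and 4 of box H/ACA small nucleolar ribonucleoproteins, 5 proteins of RNA polymerase I transcription, 11 factors of the small and 11 of the large ribosomal subunit, and a group of 3 made of Myc, Ran and Xpo1. All 42 were listed under their symbols. Npm3 was at or near 0 in every library, and the other 41 had a mean of at least 10 normalized counts over the libraries.

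Mice of the genotype Cck-Cre; R26-LSL-tdTomato on the C57Bl/6J strain, 6 to 8 weeks old, were either fasted overnight or fasted and then given the liquid diet Ensure before they were killed. Cells of the small intestine epithelium were sorted by flow cytometry, and each of 6 mice gave 1 library of tdTomato+ cells, called CCK+, and 1 of tdTomato- cells, called CCK-. The 4 groups of 3 libraries were therefore CCK+ fasted and CCK- fasted, from mice A, B and F, and CCK+ refed and CCK- refed, from mice C, D and E. All mice of these groups carried the Cre and the reporter, and Cre was driven by the gene of cholecystokinin, the gut hormone of I cells. The reporter stays on after recombination, so that a tdTomato+ cell is one that expresses Cre or descends from a cell that did. The estimated depth was 6699703 to 10799941 reads a library.

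The sort was checked on Cck, whose lowest value in CCK+ cells was 14837 normalized counts and whose highest in CCK- cells was 86.0. All 7 enteroendocrine markers were called higher in CCK+ than in CCK- cells, as were 19.6% of all genes. The CCK+ libraries were not free of other cells. The summed level of 8 enterocyte markers was 193649 to 322350 in CCK+ fasted and 129816 to 203952 in CCK+ refed cells, and 8 of 10 immune markers were called higher in CCK+ than in CCK- cells. The CCK+ library of fasted mouse B stood apart with the highest enterocyte sum and the lowest enteroendocrine sum, 79688, of the CCK+ libraries, so counts are also given without it. Fewer cells of a type and less RNA per cell cannot be told apart in such libraries.

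Ribosomes are built in the nucleolus. RNA polymerase I transcribes the long precursor of ribosomal RNA, small nucleolar ribonucleoproteins guide its methylation and pseudouridylation, and a large set of assembly factors folds and cuts it while ribosomal proteins join, before the subunits leave through nuclear pores with Ran and exportin. In the intestine the pathway is known to be most active in the dividing cells of the crypt, and in many cells its genes respond to nutrients and to the transcription factor Myc.

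Promoters of the members share short letter strings, and stretches around some of these strings are printed here for Ran, Rrn3, Tsr1, Ltv1 and Nolc1. Not every such site in these promoters is printed. The RefSeq windows run from 250 bases before to 50 after the start of a gene in the build GRCm38.p6, which is not the build of the expression values, and 36 of the 42 members had one. CACGTG, the E-box that proteins of the Myc and Max family and several others bind, was found on either strand in the windows of 9 of 36 members (25.0%) and of 8.09% of 27025 genes. CACGCG, a variant of it, was found in 33.3% of the members and 10.5% of the genes. The string CCGGAAG, known as a core of sites for ETS proteins, stood in 14 member windows (38.9%) against 9.93% of all genes, GGGCGG, the core of the Sp1 site, in 77.8% against 38.2%, and TATAAA, the TATA box, in 8.33% against 15.7%. The median GC content was 59.7% in the member windows and 52.7% in all windows, and GC-rich strings are met more often in GC-rich sequence. These are descriptions of letters and not of binding. Capitals mark the string in each stretch, which is read 5′ to 3′ on the strand of the gene.
Ran, CACGTG 118 bases before the start, chr5:129019998-129020083, plus strand: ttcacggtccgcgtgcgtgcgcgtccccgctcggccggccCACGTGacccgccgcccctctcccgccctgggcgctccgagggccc
Rrn3, CACGTG 48 bases before the start, chr16:13780611-13780696, plus strand: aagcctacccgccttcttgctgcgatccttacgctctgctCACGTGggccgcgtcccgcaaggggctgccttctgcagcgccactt
Tsr1, CACGTG 24 bases after the start, chr11:74898092-74898121, plus strand: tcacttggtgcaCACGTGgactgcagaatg
Ltv1, CACGTG 28 bases after the start, chr10:13193092-13193121, minus strand: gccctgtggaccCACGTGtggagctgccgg
Ltv1, CCGGAAG 98 bases before the start, chr10:13193189-13193275, minus strand: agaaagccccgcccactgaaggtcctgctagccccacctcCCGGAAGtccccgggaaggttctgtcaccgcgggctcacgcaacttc
Nolc1, CCGGAAG 14 bases before the start, chr19:46075793-46075846, plus strand: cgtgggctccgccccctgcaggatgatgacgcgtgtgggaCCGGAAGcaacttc
Of the 6 members whose rise after refeeding passed the test in CCK+ cells, Ran, Tsr1 and Ltv1 held CACGTG, Nolc1, Tsr1 and Ltv1 held CCGGAAG, and Nop58 held neither of these. Npm1 had no window.

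Which of these genes differed between fasted and refed mice was asked in each sort. In CCK+ cells 40 of the 42 members were higher on average after refeeding. Here and below that means a higher mean of log2(normalized count + 1). The median log2 difference was 0.74 against 0.01 over all genes, where 1 is a doubling of the level. The 6 members that rose past the test were Nop58, Ran, Npm1, Nolc1, Ltv1 and Tsr1, and none fell. These 6 are 14.3% of the members, and 1.31% of all genes were called higher in the same comparison. In 28 members (66.7%) every refed library was above every fasted one, as in 10.8% of all genes and 15.1% of the genes with a mean of at least 10 normalized counts. In CCK- cells 39 members were higher on average after refeeding, with a median of 0.66 against 0.00 over all genes, 3 members (7.14%) were called higher against 0.708% of all genes, and 24 (57.1%) did not overlap between the states against 8.05% of all genes and 11.4% of those with a mean of at least 10. The 3 genes called in CCK- cells, Nolc1, Nop58 and Tsr1, were also called in CCK+ cells. An unadjusted p under 0.05 in limma was met by 26 members and 3736 of all 22042 genes in CCK+ cells. In CCK- cells 19 members and 2635 of all genes met it. The members were chosen with earlier results of these data known, so these shares are not an independent test.

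**Figure D1:**
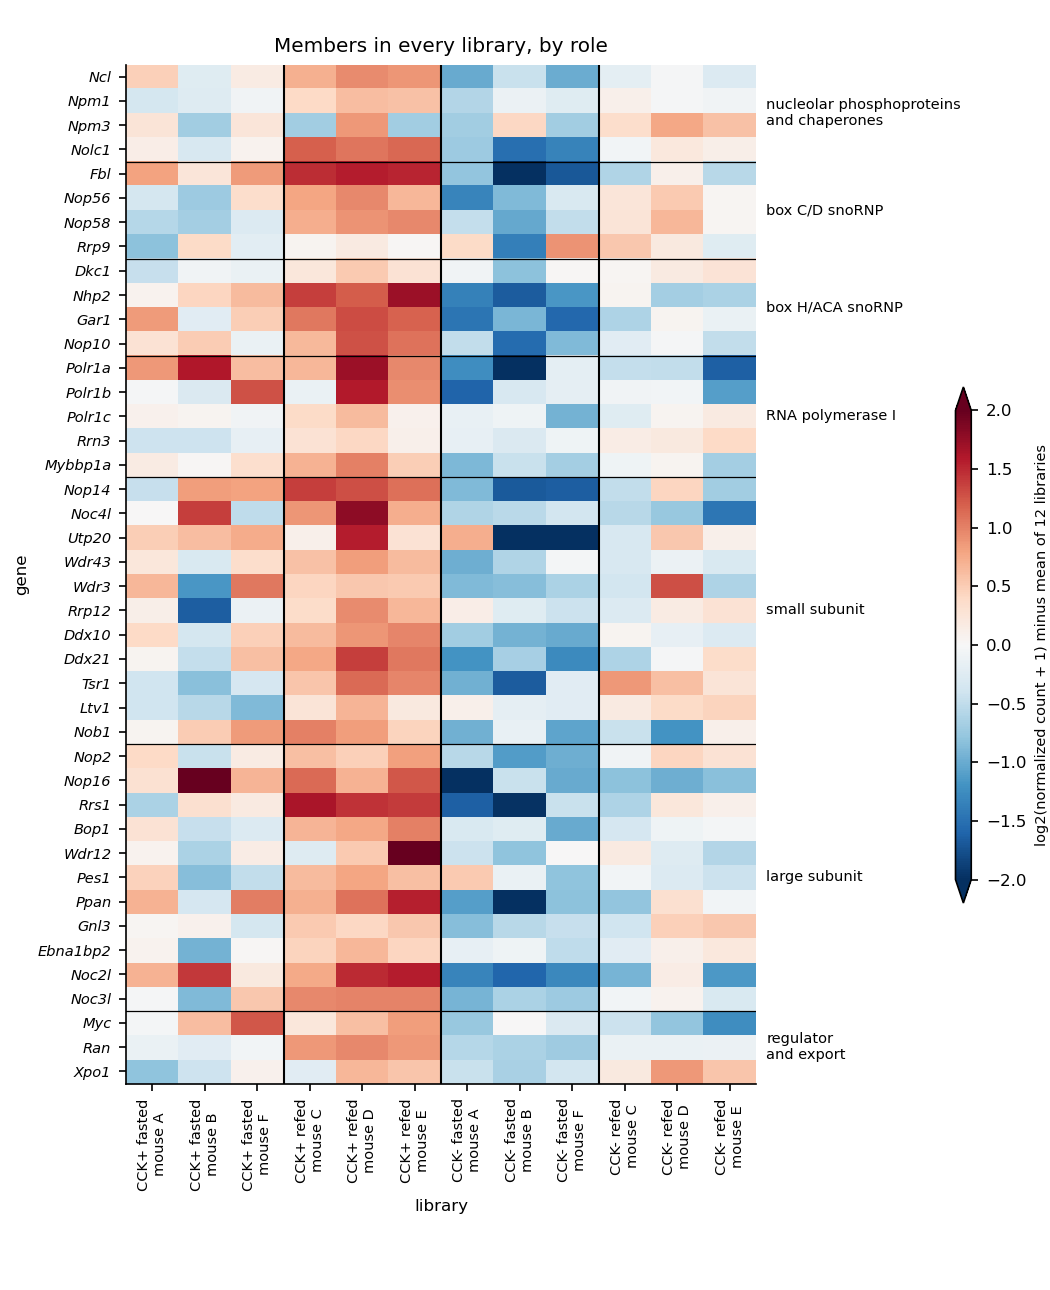
Level of each member (rows, grouped by role) in the 12 libraries (columns, grouped by sort and state), as log2(normalized count + 1) minus the mean of the gene over the 12 libraries, with colours capped at 2 log2 units. The 3 CCK+ refed columns are the reddest block, and the 3 CCK- fasted columns the bluest.

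The sum of the 42 members gives the size of the pool. In CCK+ cells it was 6884, 6079 and 7492 normalized counts in fasted mice A, B and F and 10209, 12440 and 11530 in refed mice C, D and E. In CCK- cells it was 4359, 4618 and 4593 in the fasted and 6513, 7431 and 6477 in the refed mice. The states did not overlap in either sort, and the refed CCK- libraries reached the level of the fasted CCK+ libraries. Ncl and Npm1, the most abundant members, made up a large part of each sum.

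Nop58, a core protein of box C/D ribonucleoproteins that guide methylation of ribosomal RNA, was among the members that rose in both sorts. It was at 171, 157.5 and 209 normalized counts in CCK+ cells of fasted mice A, B and F and at 419, 474 and 495 in those of refed mice C, D and E. In CCK- cells it was at 181.5, 124 and 179 in the fasted and 304, 403 and 259 in the refed mice. No refed library overlapped a fasted one. The level rose 2.59-fold in CCK+ cells (log2 difference 1.37 ± 0.21, SE; limma, adjusted p = 0.0052) and 1.98-fold in CCK- cells (0.99 ± 0.21; limma, adjusted p = 0.036), with folds taken on the log2(value + 1) scale here and throughout. Nop56, a partner in the same particle, was not called. It was 2.07-fold higher in CCK+ cells (limma, adjusted p = 0.065) and 2.15-fold higher in CCK- cells (limma, adjusted p = 0.076), with no overlap in either sort.

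Fbl, the methyltransferase of that particle, was at 109, 73.7 and 113 normalized counts in fasted and 175, 185 and 179.9 in refed CCK+ cells. In CCK- cells it was at 35.5, 7.10 and 18.5 in the fasted and 40.7, 66.9 and 42.1 in the refed mice. Again no refed library was as low as a fasted one of its sort. The log2 differences of 0.89 ± 0.43 in CCK+ (limma, adjusted p = 0.32) and 1.47 ± 0.43 in CCK- cells (limma, adjusted p = 0.14) did not pass the test. A pseudogene of Fbl, Fbl-ps2, is listed separately in the table. Whether the counting split reads between the copies was not tested. Snu13, a further protein of the particle that is not among the 42, was at 82.9, 73.3 and 97.6 in fasted and 183, 179 and 195 in refed CCK+ cells and passed the test there (log2 difference 1.13 ± 0.28; limma, adjusted p = 0.049). It is named because it belongs to that particle, after its values were seen. Rrp9, a protein of the U3 particle, overlapped between the states in both sorts, at 12.1, 29.1 and 18.8 in fasted and 22.8, 25.1 and 22.3 in refed CCK+ cells and at 28.9, 7.90 and 41.8 in fasted and 32.4, 25.3 and 18.4 in refed CCK- cells.

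Nolc1, a phosphoprotein that shuttles between nucleolus and cytoplasm and binds small nucleolar ribonucleoproteins, more than doubled in both sorts. Its values were 115, 83.5 and 109.8 in fasted and 239.9, 221 and 233 in refed CCK+ cells, and 63.0, 36.0 and 40.9 in fasted and 101, 121 and 114 in refed CCK- cells. The refed CCK- libraries lay at the level of the fasted CCK+ libraries. The rise was 2.26-fold in CCK+ (log2 difference 1.18 ± 0.24; limma, adjusted p = 0.020) and 2.43-fold in CCK- cells (1.28 ± 0.24; limma, adjusted p = 0.019).

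Npm1, nucleophosmin, a chaperone of the outer nucleolus, was at 969, 1037 and 1186 in fasted and 1637, 1908 and 1861 in refed CCK+ cells. It rose 1.70-fold there (log2 difference 0.76 ± 0.15; limma, adjusted p = 0.019). In CCK- cells it was at 823.5, 1148 and 1053 in the fasted and 1338, 1223 and 1188 in the refed mice. These did not overlap, but the log2 difference of 0.32 ± 0.15 did not pass the test (limma, adjusted p = 0.43).

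Ncl, nucleolin, an RNA-binding protein of the nucleolus, was at 1688, 1029 and 1363 in fasted and 1988, 2336 and 2228 in refed CCK+ cells. It was at 603, 889 and 609.9 in fasted and 1061, 1188 and 1008 in refed CCK- cells. The states were apart in both sorts. With log2 differences of 0.71 ± 0.19 (limma, adjusted p = 0.075) and 0.65 ± 0.19 (limma, adjusted p = 0.14) Ncl was not called in either.

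The 4 box H/ACA proteins, Dkc1, Nhp2, Gar1 and Nop10, make the particle that turns uridine into pseudouridine. None was called in either sort by limma. An unadjusted p under 0.05 in limma was met by 4 of them in CCK+ and 2 in CCK- cells, against 3736 and 2635 of all 22042 genes. In all 4 every refed library was above every fasted one in both sorts. Over all genes 10.8% in CCK+ and 8.05% in CCK- cells were so. Their log2 differences were 0.57 to 1.06 in CCK+ and 0.45 to 1.08 in CCK- cells.

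**Figure D2:**
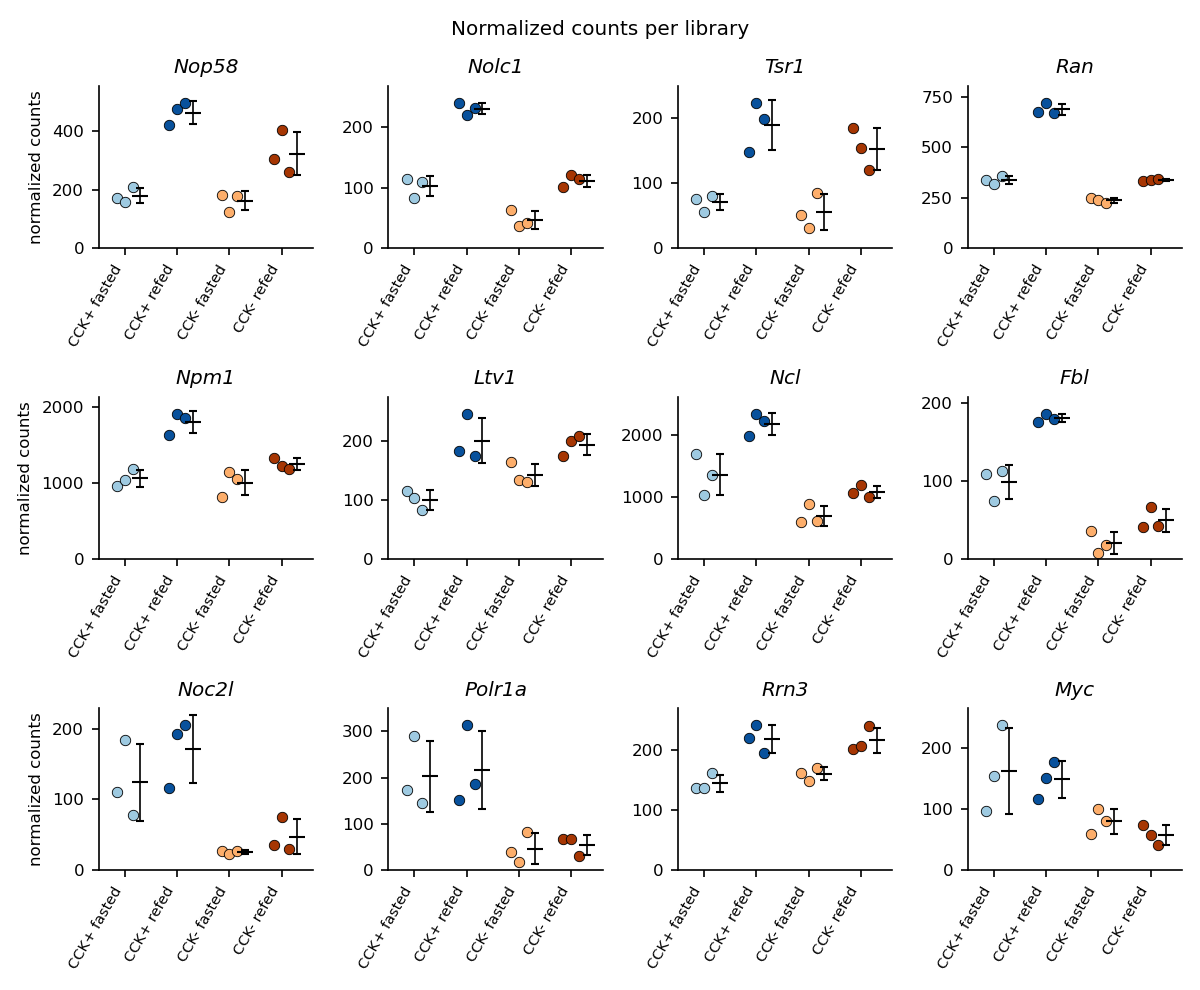
Normalized counts of 12 members in every library, with 1 point for each mouse and the mean and SD of 3 libraries drawn beside the points, on linear axes that start at 0. Nop58, Nolc1, Tsr1, Ran, Npm1 and Ltv1 are apart between fasted and refed CCK+ cells, and Polr1a and Myc overlap.

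Among the 11 factors of the small subunit Tsr1 and Ltv1 were called. Tsr1, a GTPase-like factor of the late cytoplasmic precursor, was at 76.2, 56.2 and 79.8 in fasted and 148, 223 and 199 in refed CCK+ cells, and at 51.3, 31.1 and 85.6 in fasted and 185, 154 and 120.3 in refed CCK- cells. It rose 2.66-fold in CCK+ (log2 difference 1.41 ± 0.33; limma, adjusted p = 0.036) and 2.89-fold in CCK- cells (1.53 ± 0.33; limma, adjusted p = 0.037). Ltv1, an assembly factor of the head of the small subunit, was at 116, 104 and 82.5 in fasted and 183, 246 and 175 in refed CCK+ cells. It rose 1.98-fold there (log2 difference 0.99 ± 0.21; limma, adjusted p = 0.023). In CCK- cells Ltv1 was at 164.5, 134 and 130.3 in fasted and 174, 200.2 and 208.5 in refed mice, without overlap and without passing the test (log2 difference 0.44 ± 0.21; limma, adjusted p = 0.42). Over the 11 factors the median log2 difference was 0.83 in CCK+ and 0.76 in CCK- cells. In 7 and 6 of them, respectively, every refed library was above every fasted one, against 10.8% and 8.05% of all genes. Noc4l, a partner of Nop14 in the early precursor, went against the majority in CCK- cells at 21.1, 22.1 and 25.0 in fasted and 21.9, 19.0 and 11.3 in refed mice (log2 difference -0.41 ± 0.48; limma, adjusted p = 0.84).

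None of the 11 factors of the large subunit was called after refeeding by limma. An unadjusted p under 0.05 was met by 6 in CCK+ and 4 in CCK- cells, against 3736 and 2635 of all 22042 genes. The 11 factors had a median log2 difference of 0.80 in CCK+ and 0.66 in CCK- cells. In 7 and 5 of them every refed library was above every fasted one, against 10.8% and 8.05% of all genes. Nop2, a methyltransferase, and Noc3l and Gnl3, a transport factor and the GTPase nucleostemin, were apart in both sorts. Pes1, Bop1 and Wdr12 form 1 complex that is needed for the large subunit. Pes1 was at 125, 49.7 and 63.8 in fasted and 141, 158 and 139 in refed CCK+ cells, which do not overlap (log2 difference 0.98 ± 0.36; limma, adjusted p = 0.18). In CCK- cells it was at 131, 82.1 and 51.6 in fasted and 87.6, 74.99 and 67.3 in refed mice, which do (-0.11 ± 0.36; limma, adjusted p near 1). Bop1 was apart in CCK+ cells and overlapped in CCK- cells, and Wdr12 overlapped in both.

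The 5 proteins of RNA polymerase I transcription showed the smallest median log2 differences of the roles with more than 3 members, 0.47 in CCK+ and 0.42 in CCK- cells. None was called by limma, and 2 in CCK+ and 1 in CCK- cells had an unadjusted p under 0.05, against 3736 and 2635 of all 22042 genes. Polr1a, the largest subunit of the enzyme, was at 174, 289.8 and 145 in fasted and 151, 313 and 186 in refed CCK+ cells. In CCK- cells it was at 39.4, 17.1 and 82.3 in fasted and 67.9, 67.3 and 29.99 in refed mice. The states overlapped in both sorts, and the spread within a state was wide. The log2 differences were 0.09 ± 0.49 (limma, adjusted p = 0.97) and 0.42 ± 0.49 (limma, adjusted p = 0.84).

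Rrn3, the initiation factor known to tie RNA polymerase I to growth signals, behaved more evenly. It was at 136, 136 and 160.5 in fasted and 220.2, 240.4 and 194 in refed CCK+ cells, and at 161.5, 148 and 169.6 in fasted and 200.4, 207 and 239 in refed CCK- cells. The states were apart in both sorts, with log2 differences of 0.60 ± 0.17 (limma, adjusted p = 0.091) and 0.43 ± 0.17 (limma, adjusted p = 0.33) that did not pass the test. Of 11 other RNA polymerase I genes that were listed, 10 were in the table, and limma called none of them in either sort. An unadjusted p under 0.05 in limma was met by 0 in CCK+ and 1 in CCK- cells. The median log2 differences of the 10 genes were -0.02 and 0.00.

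Myc was the member whose level was not higher on average after refeeding in either sort. It was at 96.7, 153 and 236.5 in fasted and 116, 151 and 177 in refed CCK+ cells, and at 58.5, 99.97 and 80.8 in fasted and 73.4, 57.1 and 41.3 in refed CCK- cells. The states overlapped in both sorts. The log2 differences were -0.06 ± 0.33 in CCK+ cells (limma, adjusted p = 0.97), where the sign turned to 0.17 when all libraries were scaled to the same sum, and -0.48 ± 0.33 in CCK- cells (limma, adjusted p = 0.67).

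Ran, the GTPase that drives transport through nuclear pores, had the smallest p of the members in CCK+ cells. Its values were 336, 316.5 and 357 in fasted and 675, 718.5 and 671 in refed CCK+ cells, a 2.04-fold rise (log2 difference 1.03 ± 0.14; limma, adjusted p = 0.0029). In CCK- cells Ran was at 248.5, 238 and 225 in the fasted and at 335, 335 and 341.5 in the refed mice, apart but not called (0.51 ± 0.14; limma, adjusted p = 0.097). Xpo1, the exportin that carries both subunits, was 1.64-fold higher in CCK+ cells, where the states overlapped, and 2.04-fold higher in CCK- cells, where they did not, and was called in neither.

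The calls after refeeding rest on the spread that all 12 libraries share. With the 6 libraries of a comparison alone no member was called in either sort by limma, although 23 members in CCK+ and 17 in CCK- cells had an unadjusted p under 0.05, and without the CCK+ library of mouse D, mouse E or mouse B the count in CCK+ cells was 1, 2 and 2. In CCK- cells it was 0 without the CCK+ library of mouse D or the CCK- library of mouse B, C, D or E, and 1 without the CCK+ library of mouse C, E or F or the CCK- library of mouse F. Over 22 alternatives Ran kept its call in CCK+ cells in 21, Nop58 in 20, Npm1 in 17, Ltv1 and Nolc1 in 16 each and Tsr1 in 10, and in CCK- cells Nolc1 kept it in 13 and Nop58 and Tsr1 in 7 each. The alternatives include a recomputed median-ratio scaling, which returned the main fit. They also include fits without a library of the other sort, which can change the spread but not the log2 difference. For the fits on fewer libraries counts over all genes are not given, so the counts of members cannot be set against a share.

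Whether refeeding changed the members by a different amount in the 2 sorts was tested as the difference of the changes. No member passed, and of all 22042 genes 1 did (0.00454%). The median difference was 0.07 log2 units over the members, and 2 of 42 (4.76%) had an unadjusted p under 0.05 in limma, no larger a share than the 6.25% of all genes. These were Ran, with a difference of 0.52 ± 0.19 log2 units (limma, adjusted p = 0.74), and Pes1, with 1.08 ± 0.50 (limma, adjusted p = 0.79). The differences of Ncl and Nolc1 were 0.06 ± 0.28 and -0.10 ± 0.34. Npm1 and Ltv1, called in CCK+ but not in CCK- cells, differed by 0.44 ± 0.22 and 0.54 ± 0.29 (limma, adjusted p = 0.79 for both), so a difference between the sorts was not shown for them. Utp20, a scaffold of the small subunit precursor, had the largest difference in the other direction, -1.44 ± 0.93 (limma, adjusted p = 0.80). It was at 128.7, 13.9 and 13.4 in the 3 fasted CCK- libraries, which are far apart.

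**Figure D3:**
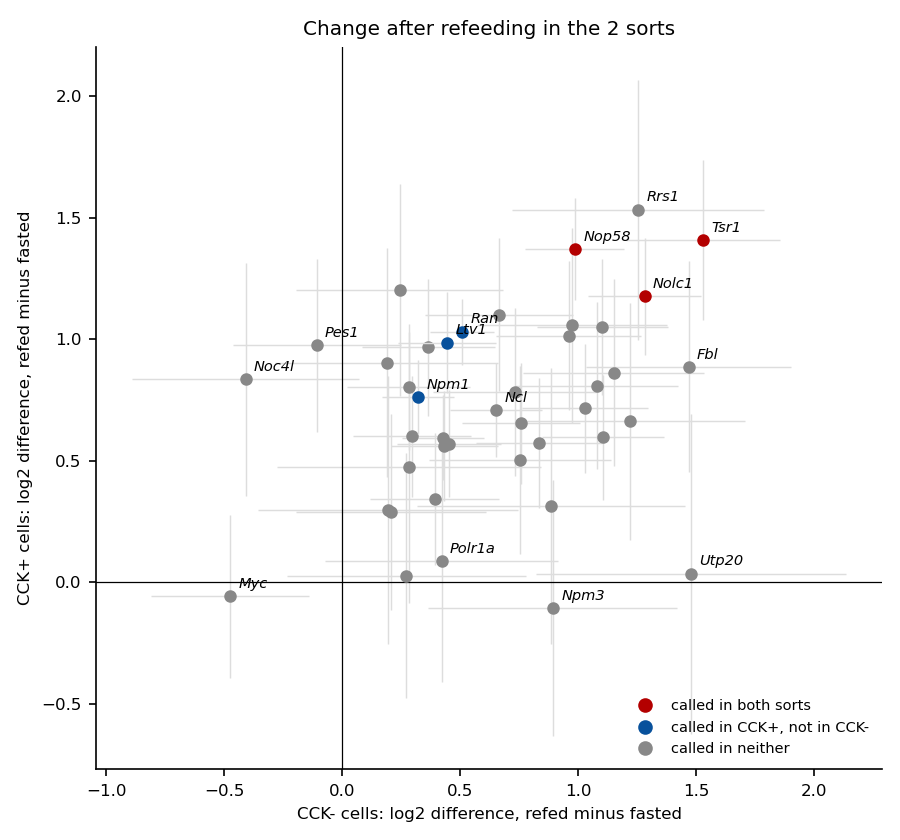
Log2 difference between refed and fasted mice for each of the 42 members in CCK- cells (horizontal) and CCK+ cells (vertical), with bars for the standard error. Most members lie up and right of both 0 lines. Nop58, Nolc1 and Tsr1 were called in both sorts, and Ran, Npm1 and Ltv1 in CCK+ cells.

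Between the sorts, the members were higher in CCK+ than in CCK- cells. Over both states 27 of 42 (64.3%) were called higher in CCK+ cells and none lower, where 19.6% of all genes were called higher. The median log2 difference was 0.82, against 0.09 over all genes. In 21 of 42 members CCK+ cells were higher than CCK- cells in each of the 6 mice, as in 16.2% of all genes and 23.0% of those with a mean of at least 10. Every CCK+ library was above every CCK- library in 5 members (11.9%), close to the 9.74% of all genes and 14.0% of genes with a mean of at least 10. The difference was seen in each state, with 17 members (40.5%) called higher in fasted mice, against 11.2% of all genes, and 22 (52.4%) in refed mice, against 15.3%. In a fit on the fasted libraries alone 4 members were called.

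Fbl, Polr1a and Noc2l showed the largest differences of the 42. Fbl, whose values are given above, was 4.46-fold higher in CCK+ cells (log2 difference 2.16 ± 0.31; limma, adjusted p = 7.4e-05). Polr1a was 4.42-fold higher (2.15 ± 0.35; limma, adjusted p = 0.00024). Noc2l, a factor that moves large subunit precursors out of the nucleolus, was at 111, 184 and 77.7 in CCK+ fasted, 116, 192 and 205 in CCK+ refed, 26.8, 22.0 and 27.2 in CCK- fasted and 35.3, 75.1 and 30.2 in CCK- refed libraries. It was 4.12-fold higher in CCK+ cells (2.04 ± 0.27; limma, adjusted p = 4.4e-05). In these 3 members, with Nhp2 and Nop16, the sorts did not overlap in any library.

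Nhp2 and Gar1, both box H/ACA proteins, were called with similar sizes. Nhp2 was at 22.3, 28.8 and 33.1 in fasted and 56.5, 50.3 and 71.5 in refed CCK+ cells, and at 7.68, 6.01 and 8.83 in fasted and 21.95, 12.8 and 13.3 in refed CCK- cells (log2 difference 1.81 ± 0.28; limma, adjusted p = 0.00017). Gar1 was at 82.9, 39.1 and 64.5 in fasted and 96.35, 114 and 104.6 in refed CCK+ cells, and at 15.95, 23.9 and 14.7 in fasted and 29.4, 47.4 and 41.4 in refed CCK- cells (1.55 ± 0.24; limma, adjusted p = 0.00017). Dkc1, the enzyme of the same particle, differed by 0.12 ± 0.16 log2 units (limma, adjusted p = 0.59), and was not called.

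Smaller differences were found for Ran, Ncl, Nolc1 and Npm1. Ran was 1.70-fold higher in CCK+ cells (log2 difference 0.76 ± 0.096; limma, adjusted p = 2.5e-05), Ncl 1.97-fold (0.98 ± 0.14; limma, adjusted p = 6.7e-05), Nolc1 2.14-fold (1.10 ± 0.17; limma, adjusted p = 0.00015) and Npm1 1.24-fold (0.31 ± 0.11; limma, adjusted p = 0.041). Myc was 2.24-fold higher (1.16 ± 0.24; limma, adjusted p = 0.0014). Nop58 and Tsr1, which rose after refeeding in both sorts, were not called between the sorts (0.35 ± 0.15 and 0.37 ± 0.23; limma, adjusted p = 0.087 and 0.25).

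The mean of 5 members was lower in CCK+ cells, and none of these passed the test. They were Npm3, Xpo1, Ltv1 (log2 difference -0.24 ± 0.15; limma, adjusted p = 0.25), Rrn3 (-0.07 ± 0.12; limma, adjusted p = 0.72) and Rrp9 (-0.13 ± 0.39; limma, adjusted p = 0.83), and 41 of the 42 members were above 0 when all libraries were scaled to the same sum, with 0.16 for Ltv1, 0.33 for Rrn3 and 0.25 for Rrp9. Npm3 was at 0.931, 0 and 0.913 in fasted and 0, 1.97 and 0 in refed CCK+ cells, and at 0, 1.16 and 0 in fasted and 1.06, 1.77 and 1.42 in refed CCK- cells, so that no difference was detectable at this depth. That scaling moved the median of the genes with a mean of at least 10 from 0.01 to 0.40 between the sorts and from 0.02 to 0.24 after refeeding in CCK+ cells, and the members' medians became 1.21 and 0.96. Under it the calls over all genes went from 4324 higher and 3107 lower to 6511 and 1232 between the sorts, and from 289 and 272 to 629 and 184 after refeeding in CCK+ cells.

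**Figure D4:**
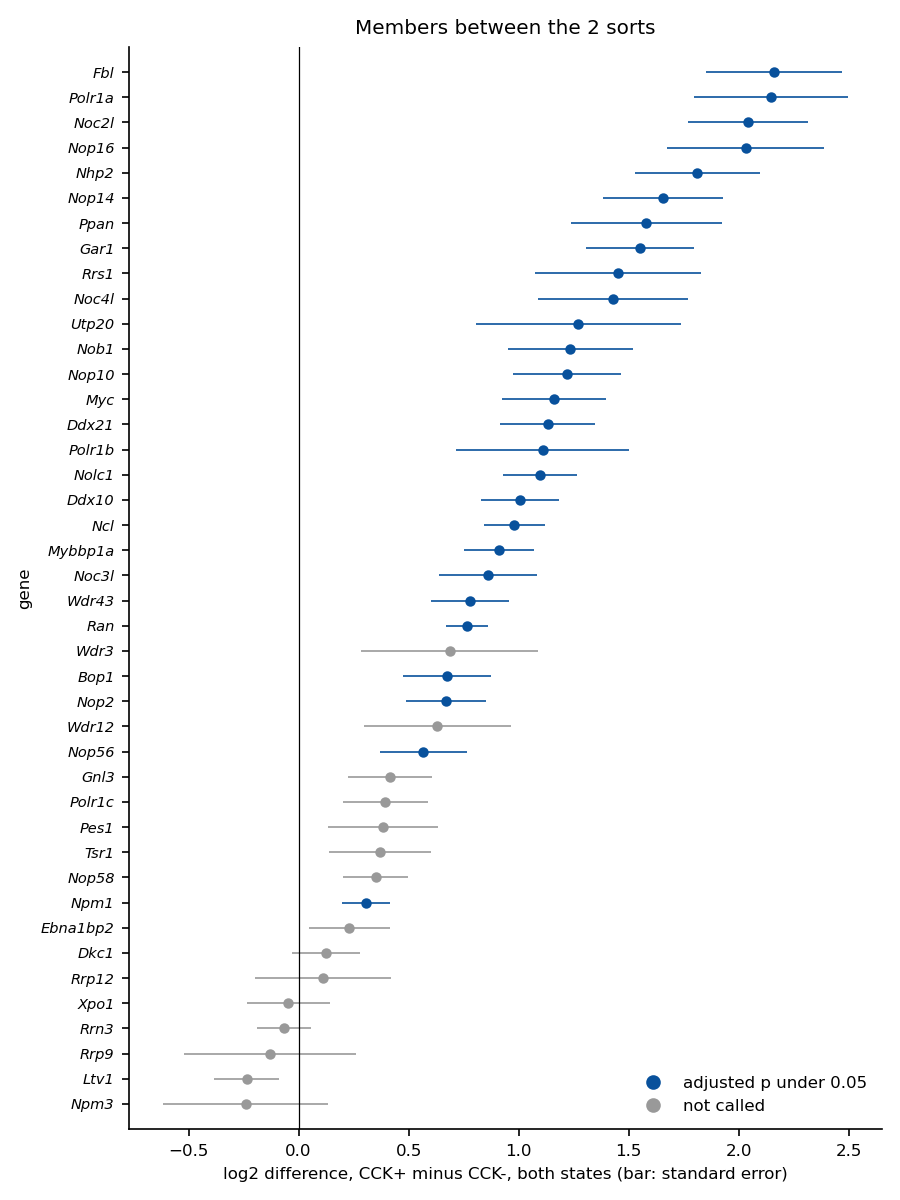
Log2 difference between CCK+ and CCK- cells over both states for the 42 members, in order of size, with bars for the standard error. Blue marks the 27 members called, and the 5 at the lower end, all uncalled, lie below 0, of which Rrn3, Ltv1 and Rrp9 lie above 0 when all libraries are scaled to the same sum.

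Other genes of the pathway were read from a further list of 128, of which 127 were in the table. In CCK+ cells 10 of them were called higher after refeeding (7.87%, against 1.31% of all genes) and none lower, with a median log2 difference of 0.50. In CCK- cells 3 were called higher (2.36%, against 0.708% of all genes) and none lower, with a median of 0.42. Rsl1d1, a nucleolar protein of the large subunit path, was at 184, 166 and 193 in fasted and 350.2, 394 and 363 in refed CCK+ cells, and at 141, 120.4 and 115 in fasted and 317.5, 294.5 and 246 in refed CCK- cells. It rose in both (log2 differences 1.03 ± 0.17 and 1.18 ± 0.17; limma, adjusted p = 0.0069 and 0.0034). Esf1, a small subunit factor, was called in both sorts too (1.39 ± 0.26 and 1.13 ± 0.26; limma, adjusted p = 0.014 and 0.0499), as were Ipo7, an importin, in CCK+ cells (0.84 ± 0.17; limma, adjusted p = 0.019) and Nol9, a kinase of precursor processing, in CCK- cells (1.22 ± 0.24; limma, adjusted p = 0.024).

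Between the sorts 50 of the 127 (39.4%) were called higher in CCK+ cells and 2 lower. Over all 22042 genes 19.6% were called higher and 3107 genes lower. Rangap1, the activator of Ran, Ruvbl1, an ATPase of box C/D assembly, and Gnl3l, a relative of nucleostemin, had the smallest p, with log2 differences of 1.37 ± 0.16, 2.31 ± 0.27 and 1.09 ± 0.13 (limma, adjusted p = 1.2e-05, 1.5e-05 and 1.8e-05). The 2 called lower were Sbds and Eif6, with -0.57 ± 0.14 and -0.43 ± 0.12 (limma, adjusted p = 0.0048 and 0.013). Both act late on the large subunit, where Sbds helps to remove Eif6.

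Ribosomal proteins join the ribosomal RNA to form the subunits. None of 76 ribosomal protein genes was called after refeeding by limma in either sort, and their median log2 differences were 0.33 in CCK+ and 0.04 in CCK- cells. In limma 24 in CCK+ and 3 in CCK- cells had an unadjusted p under 0.05, against 3736 and 2635 of all 22042 genes. In CCK+ cells 70 of the 76 were higher on average after refeeding. In 37 (48.7%) every refed library was above every fasted one, against 43.3% of the other pathway genes and 10.8% of all genes. In CCK- cells these counts were 42 and 3 (3.95%), the latter below the 8.05% of all genes. The sum of the 76 genes was 53722 to 63513 normalized counts in CCK+ fasted and 66098 to 74661 in CCK+ refed cells, which do not overlap. It was 29117 to 43292 in CCK- fasted and 34975 to 37112 in CCK- refed cells, which do. Between the sorts 71 of the 76 (93.4%) were called higher in CCK+ cells, against 19.6% of all genes, with a median of 1.01. Many ribosomal protein genes have near-identical pseudogene copies. The way reads were shared among them can change their level, which was not tested.

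Of 10 further genes of the Myc network, made of Max, Mlx and proteins that pair with one of them, none was called higher after refeeding and 1 was called lower in each sort. Of all 22042 genes 272 were called lower in CCK+ and 116 in CCK- cells. Mxd1, a repressor that competes with Myc, was at 5404, 11689 and 8432 in fasted and 3120, 2516 and 3171 in refed CCK+ cells and fell (log2 difference -1.47 ± 0.24; limma, adjusted p = 0.0063). In CCK- cells it was at 11570, 12824 and 13465 in fasted and 7237, 5827 and 7834 in refed mice, apart but not called (-0.87 ± 0.24; limma, adjusted p = 0.10). Mxd4, a relative of Mxd1, fell in CCK- cells, from 292, 238 and 256 to 117, 152 and 141 (-0.94 ± 0.20; limma, adjusted p = 0.036), and not in CCK+ cells (-0.16 ± 0.20; limma, adjusted p = 0.75). Max, the partner of both sides, was at 4501 to 9366 in CCK+ fasted and 2677 to 4494 in CCK+ refed cells (-0.99 ± 0.28; limma, adjusted p = 0.079). Mxd1 is known to be strong in cells that have left the crypt.

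Markers of dividing cells moved with the members. Of 15 cycling cell markers 1 (6.67%) was called higher after refeeding in CCK+ cells (Mki67), against 1.31% of all genes. In CCK- cells 4 (26.7%) were called (Mcm2, Mki67, Top2a and Ccna2), against 0.708%. The median log2 differences were 0.95 and 0.98. Between the sorts 6 of the markers (40%) were called higher in CCK+ cells of fasted mice, against 11.2% of all genes. In refed mice 2 (13.3%) were, against 15.3%. Over both states 10 of the markers (66.7%) were called higher in CCK+ cells, against 19.6% of all genes. Their sum was 1795 to 2954 normalized counts in CCK+ fasted, 3411 to 4172 in CCK+ refed, 1259 to 1680 in CCK- fasted and 2304 to 2847 in CCK- refed libraries, and no marker of the list was at 0 throughout a group. None of the 7 crypt stem cell markers was called after refeeding by limma. An unadjusted p under 0.05 was met by 4 in CCK+ and 3 in CCK- cells, against 3736 and 2635 of all 22042 genes. Of the 7 markers 5 were called higher in CCK+ cells, against 19.6% of all genes. Their sum was 1318 to 2647 in fasted and 2096 to 2705 in refed CCK+ cells, and 769 to 960 in fasted and 1092 to 1511 in refed CCK- cells. Of the 8 enterocyte markers 2 (Slc5a1 and Lct) fell after refeeding in CCK+ cells, none was called in CCK- cells, and 6 were lower in CCK+ than in CCK- cells. Over all 22042 genes 272 were called lower after refeeding in CCK+ cells and 3107 lower in CCK+ than in CCK- cells. The 7 enteroendocrine markers were all higher on average after refeeding in CCK+ cells, with a median log2 difference of 0.85. In limma 3 of the 7 had an unadjusted p under 0.05, against 3736 of all 22042 genes, and none was called. Their sum was 79688 to 165306 in fasted and 206148 to 263014 in refed CCK+ cells, without overlap, against 1845 to 2055 and 1331 to 2753 in CCK- cells. The part of these cell type markers in the levels of the 42 members was not tested.

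**Figure D5:**
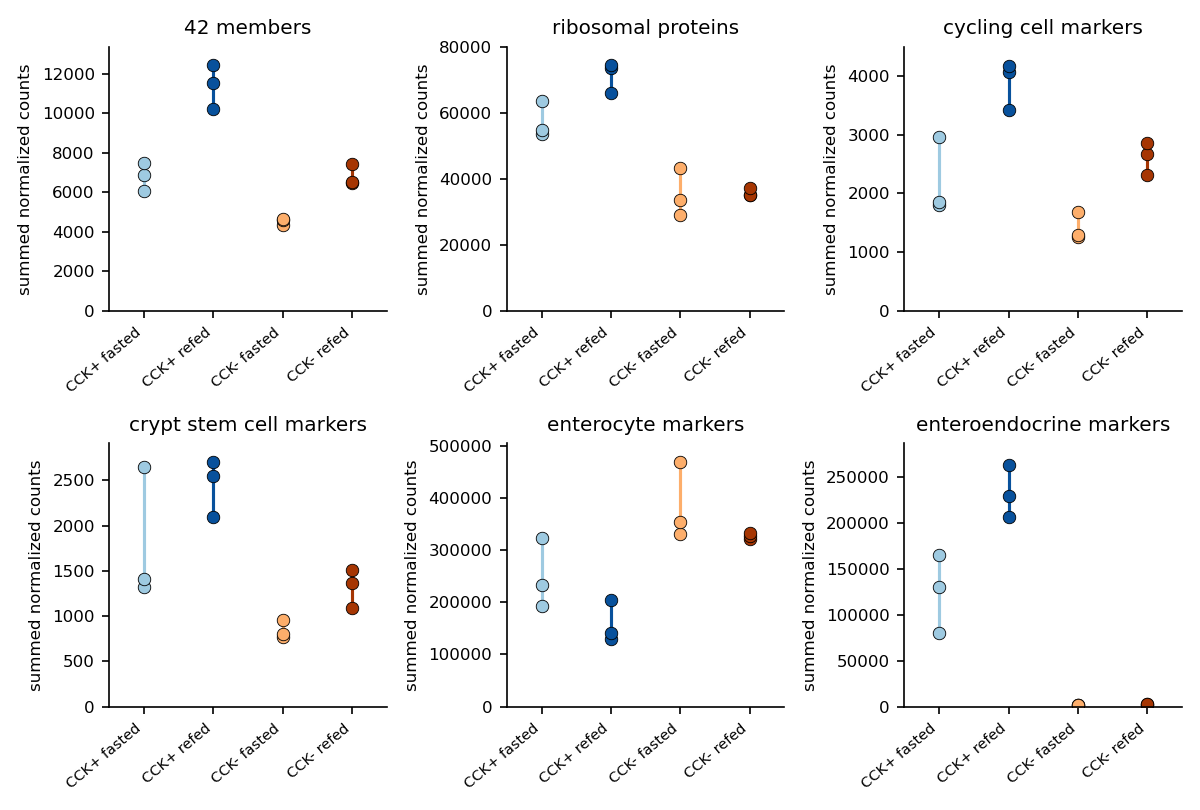
Summed normalized counts of the 42 members and of 5 other gene lists in each group, with 1 point for each of 3 libraries and a line over their range, on linear axes that start at 0. The sum of the members and that of the cycling cell markers lie apart between fasted and refed libraries in both sorts, as do the enteroendocrine markers in CCK+ cells, which are near 0 on this axis in CCK- cells.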

How the data were processed

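Bulk RNA-Seq was made from 12 sorted cell libraries of 6 mice, 3 in each of 4 groups. Per the study's methods, RNA was amplified with the Ovation RNA-Seq System V2, reads were trimmed with Trim Galore 0.6.7, quantified with Salmon 1.6.0 against GRCm39 transcripts and summed per gene. Genes with no or 1 count were removed, and the authors deposited DESeq2-normalized counts, a signal that is never negative and not whole. Amplification and normalization to a median ratio can change levels, and the sum of a library is not kept. The titles of all bulk samples read CCK+, so groups were taken from the cell type and treatment labels, which match the sort and state columns of the table, and mice from its sample columns. The droplet library was not used here.

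The value that occurred most often among low values was taken as 1 estimated read, which gave the depth of each library. Only 41.9 to 51.3% of values under 50 were whole multiples of it (tolerance 0.005), so that no count test was made. All 22042 genes, of which 2797 have no symbol, were tested as log2(normalized count + 1) with limma 3.58.1 in R 4.3.3, with a variance trend, 1 mean for each group and 8 residual degrees of freedom. The p-values were two-sided, adjusted by Benjamini-Hochberg over all genes and called under 0.05. Replicates were separate mice, and no pair of libraries within a group was identical. CCK+ and CCK- libraries of 1 mouse share the animal, and their deviations from the group means correlated by 0.107 to 0.159, against -0.112 to -0.019 for other pairs. In the main fit the 2 libraries of a mouse were treated as independent. The p-values rest on the spread between libraries within the 4 groups, pooled over both sorts, and not on that of the differences within mice. The fits were tested on simulated data. Members and lists were chosen with earlier results of these data known.

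Per-library values are given for Ncl, Npm1, Fbl, Polr1a, Rrn3 and Myc, the 8 members with the smallest p among those called in each comparison, and up to 3 members against the majority. The 3 other pathway genes with the smallest p in each direction are named where called. Promoter windows and starts come from RefSeq in GRCm38.p6.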

Additional observations from a re-analysis of the deposited data

How the results depend on the processing

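The members called after refeeding were 6 in CCK+ and 3 in CCK- cells, with 27 between the sorts and 0 for the difference of the changes. Without the variance trend these counts were 2 and 0 after refeeding (24 and 19 members with an unadjusted p under 0.05 in limma), and with the libraries of the comparison alone 0 and 0. Between the sorts 4 were called on the fasted libraries alone. With weights from estimated reads (voom), an alternative chosen after seeing the data, 0 were called in CCK- cells (16 with an unadjusted p under 0.05) and 7 in CCK+ cells. With 1 library left out the counts were 1 to 7 in CCK+ cells, 0 to 3 in CCK- cells, 23 to 28 between the sorts and 0 to 0 for the difference, the lowest in CCK+ cells being without the CCK+ library of mouse D. A group left with 2 libraries was assumed to vary like the others. For the fits named so far in this paragraph counts over all genes are not given beside those of the members. The member counts therefore cannot be set against a share. With the mouse as a replicate block the counts stayed at 6, 3, 27 and 0. Equal library sums gave 9, 3, 34 and 0. Of the 428 alternative values of the 19 named differences that were called, 343 stayed called, 85 lost the call and 0 changed sign. The 428 include the recomputed median-ratio scaling, which returned the main fit. They also include refeeding values without a library of the other sort, where the log2 difference cannot change. Among the named differences not called, 23 values changed sign. With equal library sums Myc after refeeding in CCK+ cells was 0.17, and Rrn3, Ltv1 and Rrp9 between the sorts were 0.33, 0.16 and 0.25. On the refed libraries Rrn3 and Ltv1 were 0.018 and 0.036 between the sorts, on the fasted libraries Npm3 was 0.26, and with a pseudocount of 10 Npm3 was 0.0015 after refeeding in CCK+ cells. With 1 library left out the log2 difference after refeeding in CCK+ cells ran from -0.38 to 0.26 for Myc, -0.63 to 0.16 for Npm3 and -0.21 to 0.37 for Polr1a, in CCK- cells from -0.44 to 0.22 for Pes1 and -0.14 to 0.96 for Polr1a, between the sorts from -0.46 to 0.10 for Rrp9, and for the difference of the changes from -0.13 to 0.23 for Ncl and -0.88 to 0.23 for Polr1a. The cause was not tested.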

Other observations

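Heat-shock genes stood out among 10 immediate-early and heat-shock genes that were followed beside the members. Hspa1a and Hspa1b, which code for inducible HSP70 chaperones, rose after refeeding in CCK+ cells by log2 differences of 3.18 ± 0.74 and 3.58 ± 0.77 and in CCK- cells by 3.40 ± 0.74 and 3.54 ± 0.77, past the test in limma. In CCK+ cells Hspa1a was at 29.6, 63.1 and 148 in fasted mice A, B and F. It was at 312, 620 and 1131 there in refed mice C, D and E. In CCK- cells it was at 26.6, 80.2 and 183 in fasted and 323, 843 and 1755 in refed mice. Both genes thus differed widely between mice of the same state, in the same order in both sorts, and the cause was not tested. No other gene of that list was called higher in either sort. The 2 of 10 called in each stand against 1.31% of all genes in CCK+ and 0.708% in CCK- cells. Of 6 goblet cell markers 1 was called higher after refeeding in CCK- cells and none in CCK+ cells. The 5 Paneth cell markers summed to 997 to 14404 normalized counts in CCK+ fasted and 6001 to 22402 in CCK+ refed libraries, and none was called between the states or the sorts. All 5 were higher on average after refeeding in both sorts, with median log2 differences of 1.35 in CCK+ and 1.25 in CCK- cells. An unadjusted p under 0.05 in limma was met by 4 in CCK+ and 1 in CCK- cells, against 3736 and 2635 of all 22042 genes. Every refed library was above every fasted one in 0 of them in CCK+ and 3 in CCK- cells. Over all genes the shares were 10.8% and 8.05%.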
